A study of Arabidopsis thaliana with 12 samples.

Results

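In WT seedlings, 67 of the 26891 genes in the table rose at least 2-fold after 2 h at 44°C, to 5 CPM or more (CPM, the count of a gene in a library whose total is scaled to 1000000), while *cry1* mutants at 44°C reached at most 0.5 times the WT level. The mutants had to hold more than 0.5 times the WT level at 22°C, so genes that were already low without heat are not among the 67. These conditions were applied to means over 3 libraries per group. The first pair of them left 1217 genes and the third left 75, of which 7 failed the condition at 22°C. 1 further gene that met the thresholds was left out by the rule. The 67 genes were thus chosen by their mean CPM in all 4 groups, and their levels and folds are given below as a description, with no test.

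The libraries came from *Arabidopsis* seedlings of ecotype Columbia, either WT or carrying the *cry1-304* mutation. All seedlings, controls included, had received 1 day of blue light and were then kept at 22°C or heated to 44°C for 2 h. Their age is 8 days by the labels, while the methods describe a shorter growth in white light before the blue light, and the conflict could not be settled. The 4 groups are therefore WT at 22°C, WT at 44°C, *cry1* at 22°C and *cry1* at 44°C, with 3 independent biological replicates each and 12 libraries in all. *CRY1* stood at 201 to 226 CPM in WT at 22°C and at 151 to 174 CPM in WT at 44°C. Its level was 0.107 to 0.26 CPM in *cry1* at 22°C and 0 in all 3 *cry1* libraries at 44°C, which allows up to 0.186 to 0.197 CPM (3 counts of the library total, counting error only).

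Cryptochrome 1 is a blue-light receptor that acts on transcription through the COP1 ubiquitin ligase and factors such as HY5. Heat shock factors switch on chaperone genes within minutes of heat. A separate stress route starts in mitochondria, where disturbed respiration releases membrane-tethered NAC factors that bind sites such as a palindrome of CTTG and CAAG with 5 bases between them in the promoters of genes such as *UPOX*, *SOT12* and *UGT74E2*. Glutathione transferases, UDP-glucosyltransferases, sulfotransferases and MATE efflux carriers make up the detoxification system that plants switch on under many stresses.

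The 67 genes were of mixed kinds, with 57 protein-coding genes and 10 others (5 of the class misc_RNA, 2 snoRNAs, 1 snRNA, 1 lncRNA and 1 pseudogene). They lay on all 5 chromosomes, with 22, 11, 11, 9 and 14 genes on chromosomes 1 to 5. By count, 6 genes exceeded 100 CPM in WT at 44°C, 36 lay between 10 and 100 CPM and 25 between 5 and 10 CPM. Summed over the 67 genes, the WT libraries rose from 1087 to 1175 CPM at 22°C to 5837 to 6842 CPM at 44°C. The *cry1* libraries went from 1296 to 1404 CPM at 22°C to 1879 to 2411 CPM at 44°C. The summed levels of the 2 genotypes thus lay close at 22°C, with *cry1* the higher. At 44°C they lay apart, which the rule fixes, while at 22°C it bounds *cry1* on the low side only. *SAG21* (mean 2929 CPM) and *NIA1* (mean 1275 CPM) weighed most in the sum of heated WT.

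**Figure D1:**
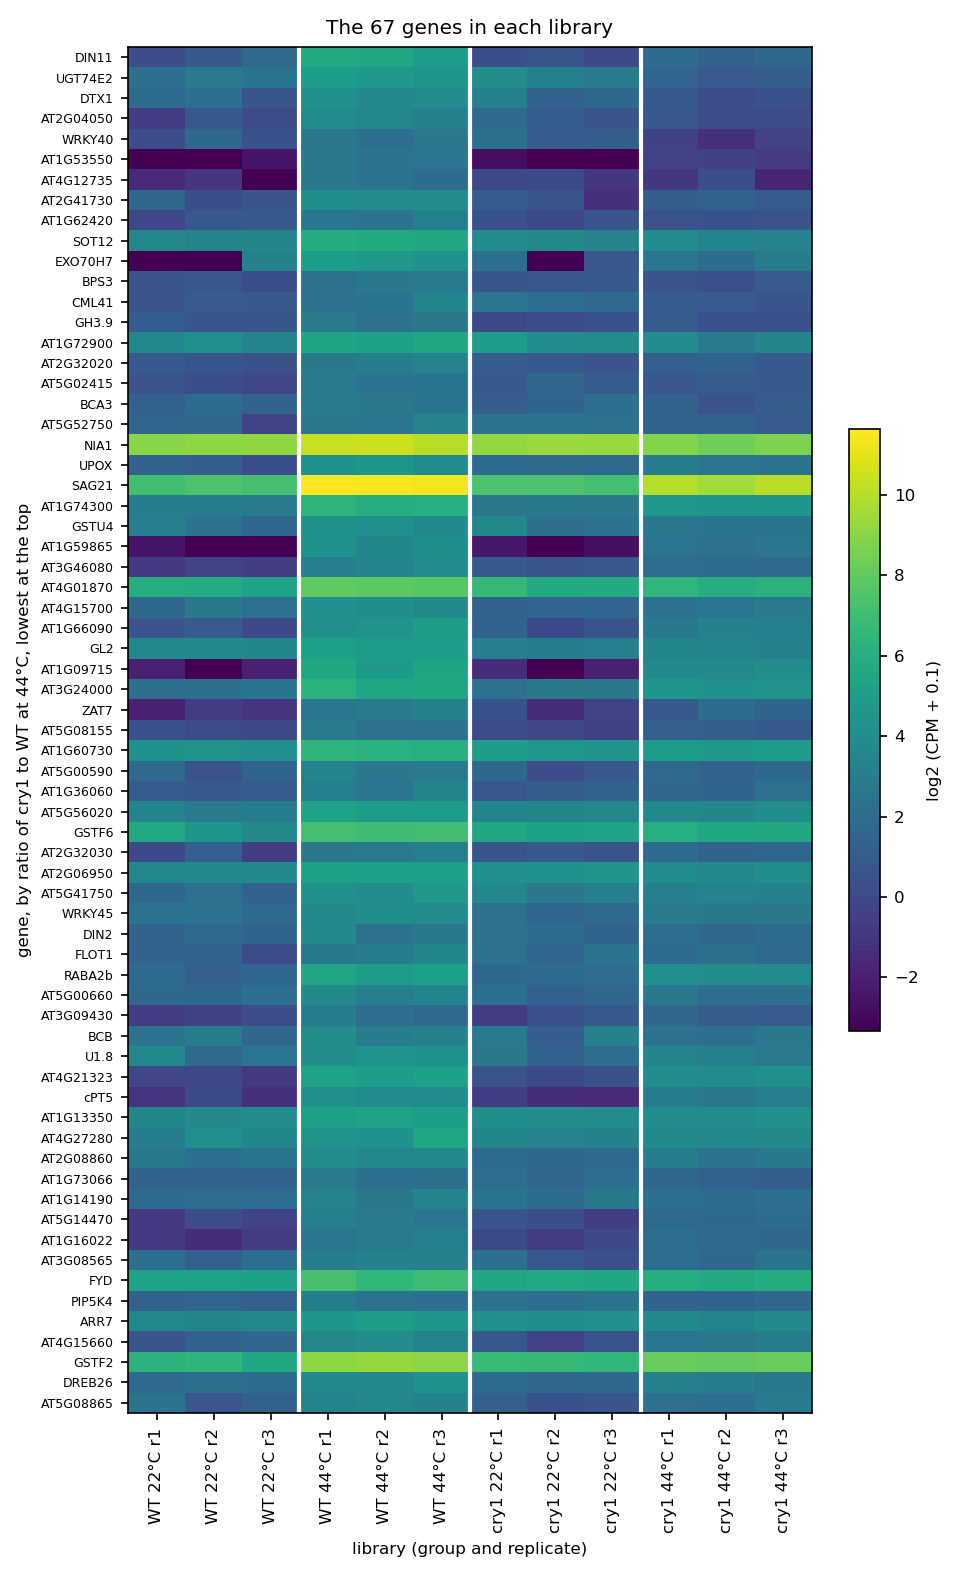
Level of each of the 67 genes in each of the 12 libraries, as log2 (CPM + 0.1), with genes ordered by the ratio of *cry1* to WT at 44°C. The 3 WT libraries at 44°C are the brightest block in most rows, and in each of the 67 rows they lie above the 3 *cry1* libraries at 44°C.

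The median gene rose 4.48-fold in WT and 1.42-fold in *cry1*, and stood at 0.382 times the WT level in heated *cry1* mutants. The rise in *cry1* (in CPM) had a median of 13.1 percent of that in WT. Between individual genes the ratio of *cry1* to WT at 44°C ran from 0.0708 to 0.5, with 12 genes at 0.25 or less and 31 between 0.4 and 0.5. In all 67 genes every WT library at 44°C lay above every *cry1* library at 44°C, which was the case for 20.8 percent of the 25580 genes tested. In 66 genes the WT libraries at 44°C also lay above those at 22°C (background 14.2 percent), the exception being *BCB*, a blue-copper-binding protein. Since both contrasts were used to choose the genes, nothing is read from these shares.

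The genes did not have the same heat response in *cry1* mutants. By mean CPM, 23 still rose at least 2-fold in *cry1*, 38 stayed within 2-fold and 6 fell at least 2-fold. "Needing CRY1" would thus overstate the values of 23 genes, which still rose, though to a lower level. All 3 heated *cry1* libraries lay above the unheated ones in 32 genes (background 10.5 percent), below them in 10 (background 65.9 percent) and overlapped them in 25. In edgeR's quasi-likelihood fit over all genes (adjusted p under 0.05 and at least 2-fold), 66 of the 67 were called higher at 44°C in WT (background 6.75 percent). 61 were called lower in *cry1* than in WT at 44°C (background 2.89 percent), and the other direction (background 1.94 percent) cannot occur under the rule on this scale. In *cry1* 21 were called higher at 44°C (background 5.19 percent) and 6 lower (background 50 percent). A smaller heat response in *cry1* than in WT was called for 47 (background 5.34 percent), while on this scale the rule precludes a larger one (background 1.16 percent). The thresholds of the rule fix or bound all these contrasts, so the calls are counted only to show how far the spread between libraries allowed them.

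The scale matters for the heat response in *cry1*. On library totals the median log2 fold change of all tested genes at 44°C was -0.85 in WT and -1.28 in *cry1*. Scaling by TMM (trimmed mean of M-values) moved these medians to -0.07 and -0.11, and the median of the 67 genes in *cry1* from 0.51 to 1.68. Under TMM 47 of the 67 were called higher at 44°C in *cry1* and 2 lower. The shares of all tested genes called under TMM were not computed, and those given above hold for library totals only. The median log2 difference between *cry1* and WT at 44°C was -1.38 for the 67 genes on totals and -1.22 under TMM, and it was below 0 in each of the 67 under both.

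**Figure D2:**
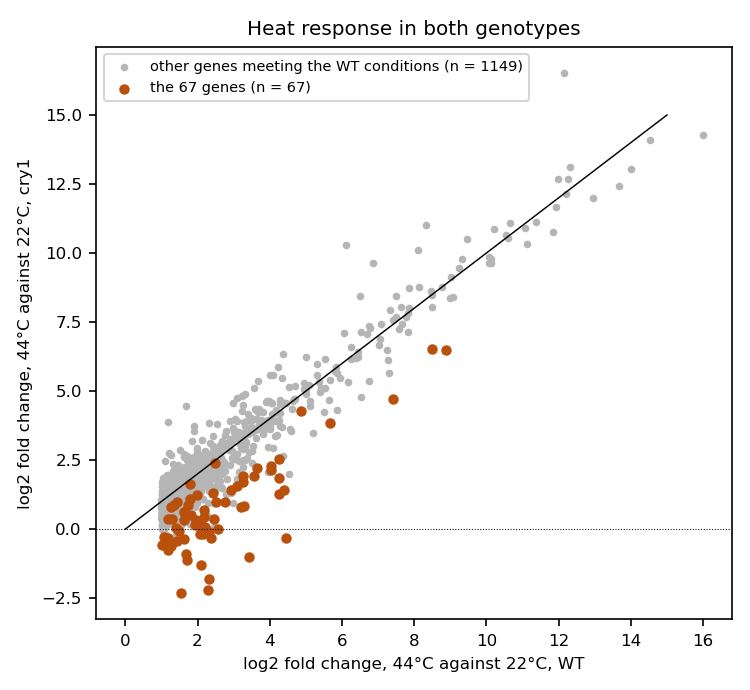
Fitted log2 fold change at 44°C against 22°C in WT (horizontal) and *cry1* (vertical), scaled to library totals, for the 67 genes and the 1149 other genes that met the WT conditions. The line marks equal responses; the 67 genes lie below it, from genes that rose strongly in both genotypes to genes below 0 in *cry1*.

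At 22°C the 2 genotypes differed less. The rule fixes this on the low side, since it left out genes that were already low in *cry1* without heat. It set no limit on the high side. The ratio of *cry1* to WT had a median of 1.20, but all tested genes were shifted alike. Their median log2 difference was 0.25, beside 0.26 for the 67, and under TMM these medians were 0.03 and 0.03. In 16 genes each *cry1* library lay above each WT library at 22°C (background 38.3 percent), in 5 each lay below (background 8.74 percent) and in 46 they overlapped. The fit called 6 genes higher in *cry1* at 22°C (background 3.11 percent), and 3 under TMM and by DESeq2. With replicate 3 of WT at 22°C left out it was 3 genes, and with replicate 2 left out 10. The 6 genes were *AT5G41750*, *AT2G04050*, *AT3G46080*, *FLOT1*, *AT5G52750* and *CML41*.

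Genes of the mitochondrial stress response were among the 67, with ratios of *cry1* to WT at 44°C from 0.0836 to 0.319. Of the 14 measured genes of this list, *SOT12*, *UGT74E2* and *UPOX* were among the 67. *SOT12* (AT2G03760), a sulfotransferase that acts on salicylic acid and brassinosteroids, stood at 11.8, 10.1 and 11.1 CPM in the WT libraries at 22°C and at 61.1, 53.1 and 49.6 CPM at 44°C. In *cry1* it stood at 14.9, 13.3 and 9.97 CPM at 22°C and at 15, 10.2 and 9.85 CPM at 44°C. The heated *cry1* libraries thus overlapped the unheated ones, and the mean at 44°C was 0.214 times that of WT (log2 -2.22 ± 0.16 SE).

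*UGT74E2* (AT1G05680), a glucosyltransferase of the auxin indole-3-butyric acid, rose from 4.36, 6.93 and 5.45 CPM to 32.3, 25.6 and 24.1 CPM in WT. In *cry1* it went from 16.6, 8.59 and 6.65 CPM down to 2.79, 1.83 and 2.23 CPM. All heated *cry1* libraries therefore lay below all others, at 0.0836 times the WT mean. *UPOX* (AT2G21640), a small mitochondrial protein that is a marker of oxidative stress, rose from 2.66, 2.24 and 1.11 CPM to 20.8, 22.8 and 15.3 CPM in WT, and from 3.63, 3.55 and 3.38 to 7.93, 5.69 and 5.19 CPM in *cry1*. Its heated *cry1* libraries lay above the unheated ones but below the WT ones, at 0.319 times the WT mean.

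Of the 11 other measured genes of the list, 1 was called lower in *cry1* at 44°C (background 2.89 percent) and 10 were not called (edgeR). With 11 genes, nothing is read from this count. Their median log2 difference was 0.04, beside -0.08 over all tested genes. The 1 lower gene was *CYP81D8*, a cytochrome P450, with 6.17 ± 1.97 CPM (mean ± SD, n = 3) in WT and 1.36 ± 0.434 in *cry1* at 44°C (log2 -2.16 ± 0.29 SE, edgeR adjusted p = 2.83e-06). *AOX1A*, the alternative oxidase that is the usual marker of this response, stood at 77.6 ± 7.34 CPM in WT and 66.3 ± 8.93 CPM in *cry1* at 44°C (n = 3). *NAC013*, which encodes one of the NAC factors, stood at 43.3 ± 7.17 CPM in WT and 70.8 ± 3.08 CPM in *cry1* at 44°C. *NAC017*, which encodes a membrane-tethered NAC factor, stood at 36.7 ± 3.27 and 38.7 ± 1.68 CPM.

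Efflux carriers and small proteins of little-known function had similarly low ratios. *DTX1* (AT2G04040) and *AT2G04050* encode MATE carriers, which export toxic compounds from the cell. They lie on chromosome 2 with 629 bases between them and share 87.8 percent of their aligned coding bases. Reads may be split between the copies, so their values may not be independent. *DTX1* rose from 3.76, 4.31 and 1.52 CPM to 18.5, 14 and 15.6 CPM in WT and stood at 8.6, 2.5 and 3.26 CPM at 22°C and 1.81, 1.05 and 1.25 CPM at 44°C in *cry1*. *AT2G04050* rose from 0.565, 1.68 and 1.03 to 14.8, 11.8 and 9.25 CPM in WT and stood at 3.49, 2.09 and 1.45 CPM at 22°C and 1.55, 0.982 and 0.985 CPM at 44°C in *cry1*. Both were thus near their unheated WT level or below it in heated *cry1* mutants, at 0.0852 and 0.0981 times the heated WT mean.

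*AT2G41730*, annotated as a calcium-binding site protein, rose from 2.9, 1.12 and 1.42 to 17.5, 16.3 and 15.9 CPM in WT. In *cry1* it stood at 1.98, 1.4 and 0.312 CPM at 22°C and at 2.17, 2.42 and 1.97 CPM at 44°C, 0.132 times WT. *AT4G12735*, an uncharacterized gene with a single exon, rose from 0.242, 0.42 and 0 CPM to 6.55, 5.01 and 3.74 CPM in WT and stood at 0.827, 0.913 and 0.415 CPM at 22°C and 0.433, 1.11 and 0.197 CPM at 44°C in *cry1*. In both genes the heated WT libraries stood clear of the other 9.

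**Figure D3:**
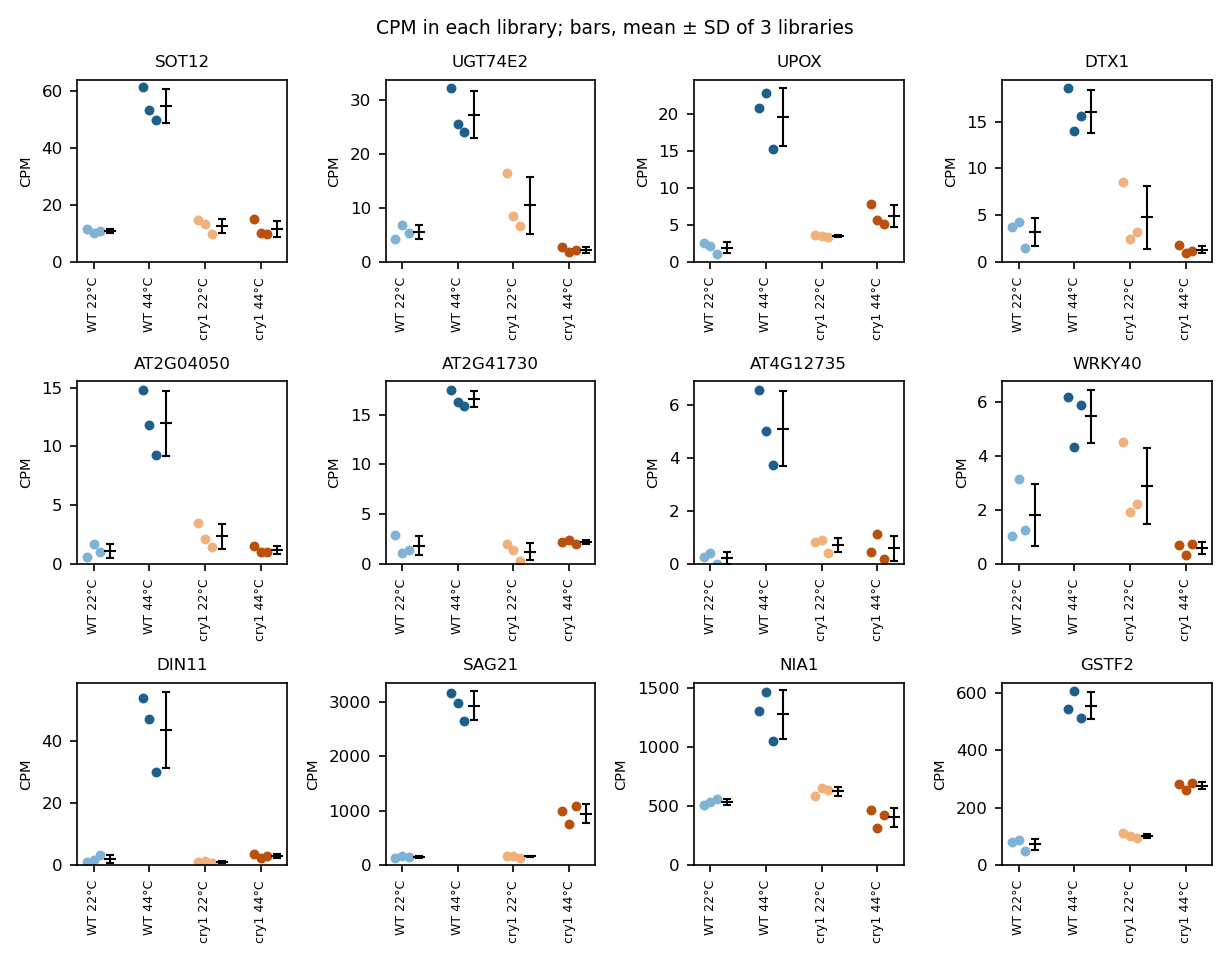
CPM of 12 of the 67 genes in each library (points) with the mean and SD of 3 libraries (bars), on linear axes from 0. In all panels the WT libraries at 44°C are the highest group; in *UGT74E2*, *DTX1*, *WRKY40* and *NIA1* the *cry1* libraries at 44°C lie below those at 22°C, and in *SAG21* and *GSTF2* they lie above.

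The NAC palindrome was searched in the promoters because it is the known site in genes of this response. Within 300 bases before the annotated gene start, CTTG followed after 5 bases by CAAG (which reads the same on both strands) occurred at 4 of the 67 genes (5.97 percent), beside 0.822 percent of all genes in the table and 0.822 percent of the 1217 genes that met the WT conditions. The 4 were *UPOX*, *AT2G04050*, *AT4G12735* and *AT1G73066*, a leucine-rich repeat gene. Within 1000 bases it was 6 genes (8.96 percent), beside 2.71 percent of all genes. *AT2G04050* had 2 copies, starting 215 and 156 bases before the gene start, and the copies of *UPOX*, *AT4G12735* and *AT1G73066* started 51, 109 and 19 bases before it. The 240 bases before the start of the 4 genes are given 5′ to 3′ on the strand of the gene, with the palindrome in capitals, so that its place can be set beside the values above. They were read from the RefSeq TAIR10.1 assembly, at chr2:9254138-9254377 (plus strand) for *UPOX*, chr2:1339469-1339708 (minus) for *AT2G04050*, chr4:7494235-7494474 (minus) for *AT4G12735* and chr1:27481545-27481784 (plus) for *AT1G73066*.
UPOX: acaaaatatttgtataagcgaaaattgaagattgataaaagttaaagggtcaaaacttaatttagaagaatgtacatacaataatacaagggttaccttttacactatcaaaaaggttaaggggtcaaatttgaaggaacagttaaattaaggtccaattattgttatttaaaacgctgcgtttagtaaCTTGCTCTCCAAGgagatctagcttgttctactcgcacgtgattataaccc
AT2G04050: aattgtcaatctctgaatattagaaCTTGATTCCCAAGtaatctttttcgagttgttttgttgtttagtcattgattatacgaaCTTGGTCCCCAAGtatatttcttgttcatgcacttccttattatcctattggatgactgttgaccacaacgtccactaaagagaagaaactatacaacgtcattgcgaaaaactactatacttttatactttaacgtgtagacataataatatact
AT4G12735: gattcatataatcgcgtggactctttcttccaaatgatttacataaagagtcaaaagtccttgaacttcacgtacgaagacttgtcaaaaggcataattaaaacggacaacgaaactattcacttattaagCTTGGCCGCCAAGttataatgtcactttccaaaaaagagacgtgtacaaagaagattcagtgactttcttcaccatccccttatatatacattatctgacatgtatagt
AT1G73066: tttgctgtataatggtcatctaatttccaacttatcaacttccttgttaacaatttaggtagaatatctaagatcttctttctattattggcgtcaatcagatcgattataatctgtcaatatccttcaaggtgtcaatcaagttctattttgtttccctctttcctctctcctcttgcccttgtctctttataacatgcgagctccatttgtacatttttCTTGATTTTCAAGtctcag

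These matches are letters in a window and no measure of binding. *SOT12*, *UGT74E2*, *DTX1* and *AT2G41730* held no match in the 300-base window. Of the other motifs searched on both strands in that window, the W-box (TTGACC or TTGACT), the core site of WRKY factors, occurred at 46.3 percent of the 67 genes and at 31.9 percent of all genes and 30.6 percent of the 1217. The heat-shock element GAANNTTC occurred at 19.4 percent, beside 11.6 percent of all genes and 13.3 percent of the 1217. The G-box CACGTG, which HY5 and other bZIP and bHLH factors can bind, occurred at 10.4 percent, beside 7.27 percent of all genes and 11.5 percent of the 1217. The abscisic acid element (ACGTGT or ACGTGG), which can overlap a G-box, occurred at 23.9 percent, beside 17.9 percent of all genes and 24.9 percent of the 1217. The evening element AAAATATCT occurred at 1.49 percent, beside 2.73 and 4.36 percent.

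Glutathione transferases also had 3 genes among the 67. These enzymes attach glutathione to toxic compounds. *GSTF2*, *GSTF6* and *GSTU4* were among the 67, of 22 measured members. *GSTF2* (AT4G02520) rose from 82.3, 86.9 and 49.6 CPM to 543, 607 and 514 CPM in WT, and from 103 ± 7.57 CPM (mean ± SD, n = 3) to 282, 262 and 285 CPM in *cry1*. The heated *cry1* libraries thus lay above all unheated ones and below all heated WT ones. *GSTF6* (AT1G02930) rose from 52.1, 22.9 and 14.2 to 141, 126 and 133 CPM in WT and stood at 47.4, 36.5 and 39 CPM at 22°C and 66.3, 50.6 and 49 CPM at 44°C in *cry1*. *GSTU4* (AT2G29460) rose from 8.39, 5.18 and 3.24 to 20.2, 18 and 13.1 CPM in WT, while its *cry1* libraries overlapped between 22°C (12.2, 4.46 and 5.04 CPM) and 44°C (6.01, 5.5 and 5.45 CPM). *GSTF2* shares 94.5 percent of its aligned coding bases with *GSTF3*, and *GSTF6* 94.3 percent with *GSTF7*, so reads may be split between the copies in ways that cannot be told apart here. *GSTF2* also overlaps *TOC159* on the opposite strand by 1442 bases.

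Over the 22 transferases, 13 were called higher and 3 lower at 44°C in WT, where the background was 6.75 and 38.8 percent. In *cry1* 6 were higher and 6 lower, beside 5.19 and 50 percent of all tested genes. Between the genotypes at 44°C 7 were called lower in *cry1* (background 2.89 percent), of which 4 were among the 19 outside the 67. None was called higher by edgeR or DESeq2, and DESeq2 called 3 of the 19 lower. At an unadjusted p under 0.05, 3 of the 19 were higher and 9 lower, and the share of all tested genes at that limit was not computed. The median log2 difference of these 19 was -0.46, beside -0.08 over all tested genes. The most highly counted genes of the list did not share this direction. *GSTU19* stood at 1473 ± 83 CPM in WT and 1805 ± 69.2 in *cry1* at 44°C, *GSTU5* at 1221 ± 173 and 1596 ± 52.1, and *GSTF8* at 662 ± 24.1 and 845 ± 62.8 (n = 3 each). *GSTF7*, the closest copy of *GSTF6*, stood at 96.2 ± 10.8 and 52.4 ± 8.89 CPM.

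*SAG21* and *NIA1* had the highest counts of the 67 genes at 44°C in WT, ahead of *GSTF2*. *SAG21* (AT4G02380), a late-embryogenesis-abundant-like protein of mitochondria that responds to oxidative stress, rose from 139, 174 and 147 CPM to 3165, 2971 and 2650 CPM in WT. In *cry1* it rose from 167, 177 and 143 to 999, 757 and 1089 CPM, so the rise was 5.83-fold where WT had 19.1-fold. *NIA1* (AT1G77760), a nitrate reductase that is induced by nitrate and light, rose from 506, 533 and 562 to 1306, 1465 and 1053 CPM in WT. In *cry1* it went from 583, 654 and 639 to 471, 316 and 429 CPM, so all heated *cry1* libraries lay below all unheated ones. Its paralog *NIA2*, not among the 67, stood at 2472 CPM in WT and 776 CPM in *cry1* at 44°C (means, n = 3). *AT4G01870*, a TolB-like protein, rose from 64.7, 59.1 and 40.2 to 247, 234 and 217 CPM in WT. In *cry1* it stood at 69.9 ± 26.7 CPM at 22°C (mean ± SD, n = 3) and at 91.8, 64.1 and 77.5 CPM at 44°C, which overlapped. *AT1G60730*, an aldo-keto reductase-like oxidoreductase, reached 75 ± 9.23 CPM in WT and 29.4 ± 2.51 in *cry1* at 44°C. *AT3G24000*, annotated as a tetratricopeptide repeat protein, rose from 4.52, 4.48 and 5.61 to 77.6, 45.9 and 48.6 CPM in WT and from 4.87, 6.39 and 5.87 to 24, 19.2 and 21.7 CPM in *cry1*. Its heated *cry1* libraries lay between the unheated and the heated WT ones.

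*WRKY40* (AT1G80840), a repressor of defence and abscisic acid genes, was the only gene of the list of stress WRKY and zinc-finger factors among the 67. It stood at 1.05, 3.15 and 1.26 CPM in WT at 22°C and 6.17, 4.34 and 5.89 CPM at 44°C, and in *cry1* at 4.51, 1.93 and 2.23 CPM and at 0.681, 0.327 and 0.722 CPM. Of the other 12 measured members of that list, 1 was called higher in *cry1* at 44°C (background 1.94 percent), with a median log2 difference of 0.06. None of the 12 was called lower by edgeR or DESeq2, where 2 were higher and 4 lower at an unadjusted p under 0.05. *WRKY45* stood at 15.3 ± 1.76 CPM in WT and 6.59 ± 0.476 in *cry1* at 44°C, and *DREB26*, an AP2 factor, at 15.6 ± 4.09 and 7.76 ± 1.18 CPM.

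*AT3G46080* and *ZAT7* are zinc-finger genes that lie on chromosome 3 with 2581 bases between them and share 89.6 percent of their aligned coding bases. *AT3G46080* rose from 0.484, 0.7 and 0.553 to 8.35, 10.2 and 15.6 CPM in WT and from 1.75, 1.4 and 1.56 to 4.02, 3.8 and 3.55 CPM in *cry1*. *ZAT7* reached 5.79, 7.35 and 8.97 CPM in WT and 1.8, 3.86 and 2.76 CPM in *cry1* at 44°C. *CML41*, a calmodulin-like protein at plasmodesmata, went from 1.64 ± 0.311 to 7.07 ± 3.29 CPM in WT and from 4.42 ± 1.21 to 1.78 ± 0.23 CPM in *cry1*. *ARR7*, a cytokinin-response regulator, rose 2.14-fold from 12.4 ± 1.19 CPM in WT, and stood at 0.718 times its unheated level, or 13 ± 2.18 CPM, in heated *cry1*. *AT1G72900*, *AT5G41750* and *AT1G66090* carry the TIR domain of immune receptors. *AT1G72900* stood at 43.3 ± 5.77 CPM in WT and 11.2 ± 3.8 in *cry1* at 44°C. *AT5G41750* stood at 21.4 ± 5.01 and 9.19 ± 0.67 CPM. *AT1G66090* stood at 17.9, 20.9 and 31.6 CPM in the heated WT libraries and at 6.63, 9.23 and 8.54 CPM in the heated *cry1* libraries.

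*DIN11* (AT3G49620), a 2-oxoglutarate dioxygenase named for its rise in darkness, had the lowest ratio of all 67 at 0.0708. It stood at 1.05, 1.75 and 3.48 CPM in WT at 22°C and rose to 54.1, 47 and 30.2 CPM, and in *cry1* it rose from 1.1, 1.5 and 0.883 to 3.65, 2.49 and 3.15 CPM. *DIN2* (AT3G60140), a beta-glucosidase of the starvation list, stood at 13.2, 4.93 and 6.54 CPM in the heated WT libraries and at 3.9, 3.27 and 3.61 CPM in the heated *cry1* libraries. Of the 17 other measured genes of starvation and amino acid breakdown, 15 were called higher at 44°C in WT and 14 in *cry1*, beside 6.75 and 5.19 percent of all tested genes. 1 of the 17 was called lower in *cry1* at 44°C by edgeR but not by DESeq2, a share near the background of 2.89 percent. That gene was *DIN10*, with 956 CPM in WT and 441 CPM in *cry1* (means, n = 3, log2 -1.12 ± 0.17 SE, edgeR adjusted p = 0.000651). *SEN1* stood at 4332 and 4077 CPM and *ASN1*, an asparagine synthetase, at 3332 and 3809 CPM.

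A further 2 pairs of related genes were among the 67. *AT2G32020* and *AT2G32030*, acyltransferases with 538 bases between them on chromosome 2 and 76.4 percent shared coding bases, reached 6.55, 8.02 and 9.82 CPM and 6.26, 6.77 and 8.79 CPM in WT at 44°C. In *cry1* they reached 2.29, 2.62 and 1.71 CPM and 3.65, 2.62 and 2.82 CPM. *AT4G15700* and *AT4G15660*, thioredoxin-fold genes with 91.6 percent shared coding bases, stood at 16.8 ± 2.27 and 13.1 ± 2.72 CPM in WT and at 5.7 ± 1.06 and 6.53 ± 1.07 CPM in *cry1* at 44°C. Reads of the latter pair may be split between the copies, so its members do not give independent values.

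No gene of the heat shock lists was among the 67. Of the 11 small heat shock proteins, edgeR called 0 and DESeq2 1 higher in *cry1* at 44°C, and 10 were higher at an unadjusted p under 0.05. Their median log2 difference was 0.34, and 0 were lower by any of these. Of the 21 heat shock factors, edgeR called 1 and DESeq2 3 higher, with a median of 0.07. Both called 0 of them lower, where 9 were higher and 2 lower at an unadjusted p under 0.05. *HSFA2*, a factor that heat itself induces, stood at 2793, 2991 and 2870 CPM in WT and at 3335, 3704 and 3520 CPM in *cry1* at 44°C. Of the 10 mitochondrial chaperones, edgeR and DESeq2 called 0 in either direction, where 5 were higher and 3 lower at an unadjusted p under 0.05, with a median of 0.19. Over all tested genes edgeR called 1.94 percent higher and 2.89 percent lower in *cry1* at 44°C. The share of all tested genes at an unadjusted p under 0.05 was not computed, so nothing is read from the counts at that limit.

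Some of the 67 genes lay beside strongly induced genes. 120 genes reached at least 100 CPM in WT at 44°C and rose at least 8-fold, and 1 of them, *SAG21*, is among the 67. Of the 67 genes, 13 (19.4 percent) lay past the 3′ end of one of these strongly induced genes, with at most 5000 bases between them or with the ends overlapping. This held for 2.1 percent of the 1097 genes that met the WT conditions without being so strongly induced, the members of the 67 included, and for 0.896 percent of all genes in the table. 7 of the 13 lay on the strand of the induced gene and 6 on the opposite strand. 1 gene, *AT1G66090*, lay past a 5′ end, 724 bases from that of *AT1G66080*.

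The 12 induced genes beside the 13 were 1.13 to 1.56 times as high in *cry1* as in WT at 44°C. The 13 genes themselves stood at 0.112 to 0.489 times, a value that the rule held at 0.5 or less. *FYD* (AT3G12570), whose end lies 37 bases from the 3′ end of *HSP70* (AT3G12580) on the opposite strand, rose from 40.4, 40.6 and 38.2 CPM to 154, 94.2 and 121 CPM in WT. In *cry1* it stood at 44.5, 52.2 and 46.1 CPM at 22°C and at 62.4, 56 and 62.2 CPM at 44°C. *HSP70* itself stood at 13948, 14302 and 15194 CPM in heated WT and at 16825, 18585 and 16915 CPM in heated *cry1* libraries. In both genes the heated libraries of the 2 genotypes did not overlap, with WT the higher in *FYD*, as the rule requires, and *cry1* the higher in *HSP70*.

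*AT1G59865* and *AT1G09715* follow the small heat shock protein gene *AT1G59860* one after the other on chromosome 1, with 62 bases between the first and the heat shock gene and 62 bases between the first and the second. *AT1G59865*, an uncharacterized gene on the opposite strand, stood at 0.0807, 0 and 0 CPM in WT at 22°C and at 19.3, 11.6 and 17.2 CPM at 44°C. In *cry1* it stood at 0.0919, 0 and 0.0519 CPM and at 5.7, 4.58 and 5.65 CPM. *AT1G09715*, a non-coding RNA on the strand of the heat shock gene, stood at 0.161, 0 and 0.158 CPM and 48.1, 27.2 and 43 CPM in WT, and at 0.276, 0 and 0.156 CPM and 14.4, 13 and 16.1 CPM in *cry1*. Neither was counted above a few reads without heat, and both rose in each heated library. *AT1G59860* stood at 5965, 6727 and 6888 CPM in heated WT and at 8411, 8402 and 7992 CPM in heated *cry1* libraries.

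*RABA2b*, a small GTPase of membrane traffic that starts 246 bases past *HSP17.8* on the same strand, reached 44.7, 30.3 and 34.6 CPM in heated WT and 17.9, 16.6 and 14.8 CPM in heated *cry1* libraries. *AT5G56020*, a vesicle-transport gene that starts 133 bases past *HSP81-3*, reached 39, 30.9 and 31 CPM in WT and 13.3, 11.7 and 16.9 CPM in *cry1*. *AT1G53550*, an F-box gene that starts 2211 bases past *HSP17.6C*, was at 0, 0 and 0.079 CPM in WT at 22°C, and stood at 6.26, 5.26 and 5.7 CPM in WT and 0.743, 0.654 and 0.525 CPM in *cry1* at 44°C. *AT1G74300*, a hydrolase gene whose end overlaps that of *HSP101* on the opposite strand, stood at 86, 63.7 and 69 CPM in WT and 24.6, 23.1 and 23.3 CPM in *cry1* at 44°C. In each of these 4 genes the heated *cry1* libraries lay below the heated WT ones, and in all but *AT5G56020* they lay above the unheated *cry1* libraries.

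The other 6 were *AT3G09430*, *AT4G21323*, *AT1G14190*, *AT1G16022*, *EXO70H7* and *AT5G02415*. They lay past the Hsp70 gene *AT3G09440* (*AT3G09430*, overlapping by 863 bases), *HSA32* (*AT4G21323*, by 113 bases) and *AT1G14200* (*AT1G14190*, by 84 bases), and after *Hsp70b* (*AT1G16022*, 109 bases), *HSP18.2* (*EXO70H7*, 574 bases) and *CLPB3* (*AT5G02415*, 1076 bases). *EXO70H7* overlaps another gene on the opposite strand over 2221 bases and was listed at 0, 0 and 9.26 CPM in WT at 22°C, so its counts are uncertain. *AT5G02415* overlaps *EDL1* on the opposite strand over all its 769 bases, and *EDL1* stood at 25.1 CPM in WT and 10.25 in *cry1* at 44°C. Of the 13, 8 still rose at least 2-fold in *cry1*, as did 15 of the other 54. None of the 13 held a heat-shock element within 300 bases before its start, as against 13 of the other 54 and 11.6 percent of all genes. Within 1000 bases 2 of the 13 and 24 of the other 54 held one, beside 33.5 percent of all genes.

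**Figure D4:**
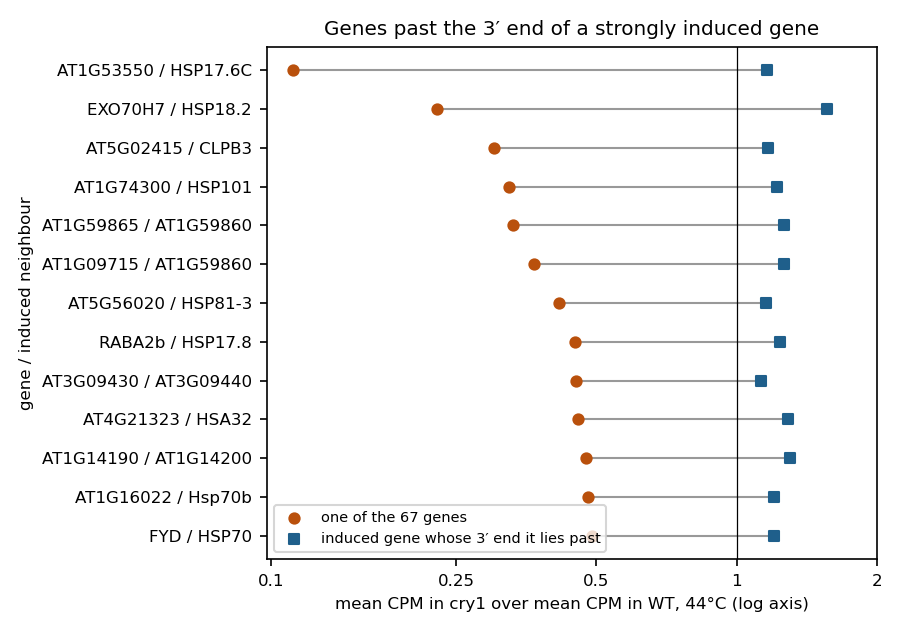
Ratio of mean CPM in *cry1* to WT at 44°C (log axis) for the 13 genes past the 3′ end of a strongly induced gene (circles) and for that induced gene (squares). The circles lie between 0.112 and 0.489 and the squares between 1.13 and 1.56. The rule held the circles at 0.5 or less, so the gap to the squares is a description.

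The bases between the members and the 3′ end of the induced gene are shown for 3 of the shortest gaps, to make the spacing visible. They run from the end of the induced gene in its direction of transcription, from the RefSeq TAIR10.1 assembly at chr3:3991080-3991116 (minus strand) after *HSP70*, chr1:22032251-22032312 (plus) after *AT1G59860* and chr5:22684253-22684385 (plus) after *HSP81-3*. Nothing is capitalised, since no motif was searched in them.
HSP70 to FYD: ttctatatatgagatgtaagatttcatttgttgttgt
AT1G59860 to AT1G59865: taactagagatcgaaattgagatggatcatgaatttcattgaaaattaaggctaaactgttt
HSP81-3 to AT5G56020: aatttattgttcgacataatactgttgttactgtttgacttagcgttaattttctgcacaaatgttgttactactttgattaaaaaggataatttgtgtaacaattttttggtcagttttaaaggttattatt

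The same position was then taken for all genes, whether or not they rose with heat. 240 tested genes lay past the 3′ end of a strongly induced gene, and 41 of them (17.1 percent, or 10.8 percent under TMM) were called lower in *cry1* at 44°C and 3 higher. Their median log2 difference was -0.42. Of 179 tested genes past a 5′ end, 6 (3.35 percent) were called lower and 1 higher, with a median of -0.12. Over all tested genes, 2.89 percent were called lower, with a median of -0.08, and the 120 induced genes themselves had a median of 0.29. Tested genes had to pass the expression limit in only 1 group, so some neighbours had few counts, such as *AT1G53542* (0.345 CPM in WT at 44°C). The shares were not recomputed for genes past that limit in each group. Leaving out the members of the 67, which were chosen to be lower, 29 of 227 genes (12.8 percent) past a 3′ end and 5 of 178 (2.81 percent) past a 5′ end were called lower, with medians of -0.38 and -0.11. With the members included, the share was 19.1 percent of 110 genes on the strand of the induced gene and 15.4 percent of 130 on the opposite strand. Without them it was 13.6 percent of 103 and 12.1 percent of 124 genes. By distance, with the members included, it was 21.5 percent of 79 genes with fewer than 500 bases between them or overlapping ends. It was 21.4 percent of 42 genes from 500 to 1500 bases and 12.6 percent of 119 genes farther off. Without the members these shares were 11.4 percent of 70, 17.95 percent of 39 and 11.9 percent of 118 genes, with no steady fall with distance. Summed CPM over the 228 neighbours past a 3′ end that are not among the 67 was 3957 to 4448 in WT and 3667 to 3757 in *cry1* at 44°C. Of the 23 neighbours past a 3′ end that met the WT conditions, 13 were among the 67, and of 25 past a 5′ end, 1 was. Over all genes that met the WT conditions it was 67 of 1217. The rule set these counts by the level in *cry1* at 44°C, so nothing is read from them. The files hold counts per gene, so whether reads counted for these genes start in the induced neighbour was not tested. RSEM with default parameters, as the methods state, does not use the strand, so reads on either strand of a gene count for it.

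**Figure D5:**
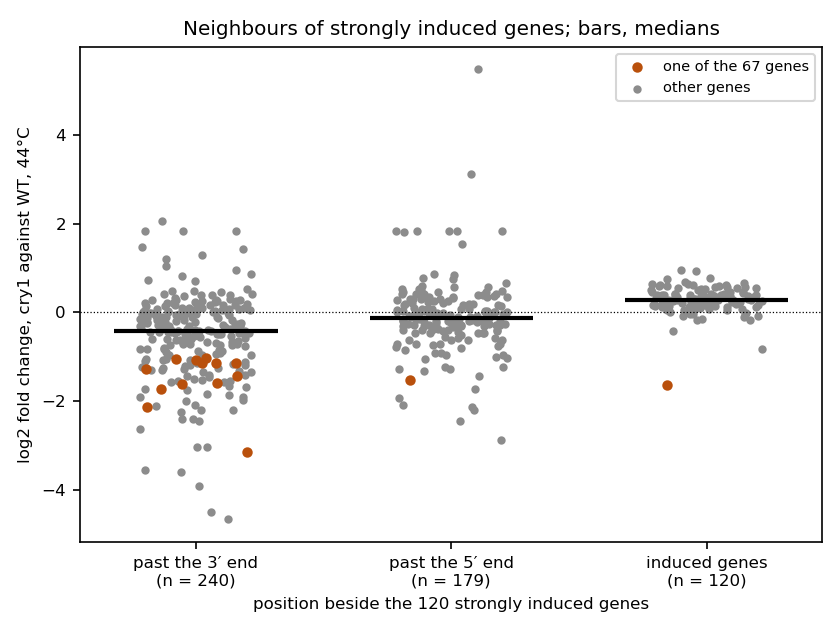
Fitted log2 fold change of *cry1* against WT at 44°C for tested genes past the 3′ end (n = 240) or the 5′ end (n = 179) of the 120 strongly induced genes and for these genes themselves, with the 67 genes in orange and medians as bars. The medians are -0.42, -0.12 and 0.29.

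The 10 genes that are not protein-coding included small nuclear and nucleolar RNAs. *U1.8*, an snRNA of the splicing machinery, stood at 16, 21 and 19.9 CPM in WT and 10.8, 8.44 and 6.66 CPM in *cry1* at 44°C. The snoRNAs *AT2G08860* and *AT5G08865* stood at 13.8 ± 2.04 and 10.6 ± 1.38 CPM in WT and at 6.42 ± 1.35 and 5.28 ± 1.39 CPM in *cry1*. How much of such short RNAs a library keeps depends on its preparation, and its part in these values was not tested. Over all its 142 bases *AT2G08860* overlaps *ADK* on the same strand (33.7 CPM in WT and 24.7 in *cry1* at 44°C). *AT5G08865* overlaps *AT5G08855* on the opposite strand over all its 139 bases (27.7 and 16.6 CPM). Reads may be split between these snoRNAs and the overlapping genes in ways that cannot be told apart here. Among the 57 protein-coding genes 17 (29.8 percent) had a single exon, beside 15.8 percent of the 1090 protein-coding genes that met the WT conditions and 16.8 percent of all 23828 in the table. The median number of exons was 2, beside 4 in both of these sets.

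The thresholds passed close to some genes. *AT3G09430* at 5.03 CPM in WT at 44°C was the lowest inside, and *AT2G35945* at 4.90 CPM the nearest outside. *AT1G73066* rose 2.02-fold in WT, and *GRF3*, outside, 1.98-fold. *AT5G08865* lay at 0.4998 times the WT level at 44°C, and *AT1G06537*, outside, at 0.504. *AT4G15660* held 0.519 times the WT level at 22°C, and *PLA2A*, outside, 0.473.

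Total counts ran from 10539271 to 14295796 in WT and from 15228953 to 21752824 in *cry1* libraries, so values of *cry1* rest on more counts. The 5 green-tissue markers summed to 41761 to 42342 CPM in WT and 26821 to 30551 CPM in *cry1* at 22°C, and to 23530 to 26518 and 20629 to 22824 CPM at 44°C. They were thus lower in *cry1* and lower with heat. The 4 epidermis markers summed to 2669 to 3054 CPM in WT and 2416 to 3075 CPM in *cry1* at 22°C, and to 425 to 495 and 534 to 679 CPM at 44°C. The 5 root markers summed to 62.9 to 112 CPM at 22°C and 28.2 to 46.7 CPM at 44°C. The 3 seed markers moved with genotype, at 17.3 to 29 CPM in WT at 22°C and 2.84 to 10.8 at 44°C, beside 62.8 to 361 and 52.3 to 108 CPM in *cry1*. No green, epidermis, root or seed marker was at 0 throughout a group, and the part of these markers in the values of the 67 genes was not tested. In whole seedlings, fewer cells of a type and less RNA per cell cannot be told apart. Replicate 1 of *cry1* at 22°C was the highest of its group for 41 of the 67 genes (61.2 percent), beside 36.4 percent of all tested genes, and replicate 1 was also the highest for 40 genes in WT at 44°C (59.7 percent, beside 48.5) and for 38 in *cry1* at 44°C (56.7 percent, beside 41.7). Without that replicate of *cry1* at 22°C the rule took 59 genes, all of them among the 67.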

How the data were processed

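RNA-seq of 12 seedling libraries (4 groups of 3, grouped by title) was analysed. For each of 26891 genes the table that the authors deposited holds expected counts. Per the paper, reads of rRNA-depleted RNA were trimmed with Trimmomatic and quantified with RSEM on TAIR10 with default parameters, which do not use the strand, so reads of a gene and its antisense partner cannot be told apart. The labels add a stranded mRNA kit, and TopHat2 2.0.11 is listed in the submitters' processing notes. All 26891 identifiers were found in the RefSeq annotation of TAIR10.1, which supplied coordinates and promoters, and 0 columns of per-sample values were unmapped.

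Expected counts were scaled to CPM by the library total. For calls they were rounded and fitted in edgeR 4.0.16 (R 4.3.3) with a term per group, robust quasi-likelihood, library totals and the 25580 genes whose mean FPKM exceeded -5 on the log2 scale in at least 1 group. All 67 genes were tested, and 66 passed that limit in each group. A call needed an adjusted p (Benjamini-Hochberg) below 0.05 with at least a 2-fold change. SE values were taken from each fold change and F statistic. The common biological coefficient of variation was 0.105. The fit was tested on simulated counts.

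The members, the lists (mitochondrial stress response, mitochondrial chaperones, heat shock factors, small heat shock proteins, glutathione transferases, starvation and amino acid breakdown, stress WRKY and zinc-finger factors, tissue markers) and the thresholds were chosen with earlier results of these data known. Also counted, with no member, were flavonoid synthesis, light and UV-B protection, cryptochrome pathway, abscisic acid and dehydration, and DREB and CBF factors. So were core hypoxia response, jasmonate synthesis and response, and reactive oxygen defence. At 44°C edgeR called 4 of 11 hypoxia genes lower in *cry1* (median log2 difference -0.97). It called 8 of 14 abscisic acid genes higher (median 1.21). Both had 0 calls the other way, and the rest of these lists at most 2 each. Genes named were the 12 with the highest CPM in WT at 44°C, the 8 with the lowest ratio, list members, genes near another member (within 10 kb) or with a paralog among the members, and those nearest each threshold. *WRKY45*, *DREB26*, *CML41*, *ARR7*, *AT5G41750*, *U1.8*, the snoRNAs, *BCB*, the 6 genes called higher in *cry1* at 22°C and the genes beside strongly induced genes were named after their values were seen, as was the definition of a strongly induced gene. Alternatives were TMM and median-ratio scaling, DESeq2 1.42.0, other filters and CPM limits, the replicate number as a block, fits of the compared groups only and each library left out. Replicates of a group differed by more than sampling noise (chi-square per gene 4.65 to 13.8). Intervals and floors cover counting error only.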

Additional observations from a re-analysis of the deposited data

Results flagged for a closer look

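In 10 of the 67 genes every WT library was higher at 44°C than at 22°C while every *cry1* library was lower, which was the case for 1.54 percent of all tested genes. They were *NIA1*, *UGT74E2*, *DTX1*, *WRKY40*, *CML41*, *ARR7*, *PIP5K4*, *AT1G72900*, *AT2G06950* and *AT5G52750*. The difference was not tested, since the same contrasts chose the genes. On the TMM scale, tried after the data were seen, 2 of the 10 kept this pattern, *UGT74E2* and *WRKY40*, and 0.532 percent of all tested genes had it.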

How the results depend on the processing

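The rule took 75 genes under TMM (43 of them among the 67) and 79 under median-ratio size factors (46 among the 67), and 140 with a limit of 1 CPM or 42 with a limit of 10 CPM. Leaving out 1 library gave 59 to 78 genes, and 37 of the 67 met the rule in each of the 12 cases. Genes described above that failed it in at least 1 case included *DIN11*, *DIN2*, *GSTF2*, *AT2G41730*, *AT4G12735*, *AT1G73066*, *AT4G15700* and *AT4G15660*. Of the genes past a 3′ end, *FYD*, *RABA2b*, *EXO70H7*, *AT1G14190*, *AT1G16022*, *AT1G53550* and *AT3G09430* failed it in at least 1 case. Counts that rest on these genes depend on single libraries. Members called higher at 44°C in *cry1* went from 21 to 47 under TMM and 48 by DESeq2, and those called lower from 6 to 2 under both. Those called higher in *cry1* at 22°C went from 6 to 3 under TMM and DESeq2. With 1 library left out they were 3 (without replicate 3 of WT at 22°C) to 10 (without replicate 2 of WT at 22°C). The counts lower in *cry1* at 44°C were 43 under TMM, 46 by DESeq2 and 49 to 63 with 1 library left out, beside 61. With 1 library left out, 62 to 67 were higher at 44°C in WT, 21 to 26 higher and 4 to 7 lower at 44°C in *cry1*, and 44 to 49 had a smaller response in *cry1*. The share of all tested genes called was computed for the main fit only. Counts of members under the other scalings, tests, blocks and left-out libraries therefore have no background beside them.

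With the replicate number as a block, 64 of the 67 were called higher at 44°C in WT, 62 lower in *cry1* at 44°C, 22 higher and 5 lower at 44°C in *cry1*, 47 smaller in response and 7 higher in *cry1* at 22°C. Deviations of same-numbered libraries correlated between groups at -0.123 to 0.359. Differently numbered libraries were not compared, so whether the numbers pair the samples cannot be told from these values.

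The share of genes past a 3′ end called lower in *cry1* at 44°C (17.1 percent) was 10.8 percent under TMM, 13.3 by DESeq2, 29.1 with induced genes of 1000 CPM or more and 12.5 to 17.1 with 1 library left out. Past a 5′ end (3.35 percent) it was 2.23 under TMM and DESeq2, 1.68 and 0 with induced genes of 500 and 1000 CPM or more (6, 2 and 0 genes were called lower), and 2.79 to 4.47 with 1 library left out. These alternatives were chosen after the data were seen. The count of genes with opposite responses fell from 10 to 2 under TMM. The cause of these differences was not tested. Depth limits the genes under 10 CPM, where 3 counts are 0.138 to 0.285 CPM.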
